A study of Homo sapiens with 8 samples.

Results

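Collagens, laminins and integrins are the chains of the fibres and sheets around cells and the subunits of the receptors that hold cells to them. Their genes were taken from the array annotation by symbol: COL followed by a number, LAMA, LAMB or LAMC followed by a number, and the integrin subunits starting with ITGA or ITGB. The rule found 78 genes with 207 probe sets, among 19775 genes with a single symbol. They comprised 43 collagen chains, 10 laminin chains, 18 integrin alpha subunits and 7 integrin beta subunits. Binding proteins, antisense RNAs, a pseudogene and ITGBL1 were left out, and COL17A1, LAMA3 and ITGB6 were not analysed here.

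The lines ACHN, CAKI2, A498 and CAKI1, all established human clear cell renal cell carcinoma lines, were each treated with A939572, an inhibitor of the fatty acid desaturase SCD1, at 75 nM for 24 hours, or with DMSO, its solvent. Total RNA of each culture was hybridised to an expression array, so each treatment had 4 arrays, 1 in each line, and each line had 2. All cultures were grown in serum-supplemented medium with no surrounding tissue, and the labels do not describe repeated cultures within a line. The treatment contrast therefore rests on the spread between lines.

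Collagen chains wind into triple helices that form fibrils, the network of basement membranes, or beaded and anchoring filaments. Laminins are cross-shaped trimers of an alpha, a beta and a gamma chain that organise basement membranes, the sheets that lie under kidney tubules and around glomerular capillaries. Integrins pair an alpha with a beta subunit at the cell surface and join matrix ligands outside the cell to the actin cytoskeleton inside it.

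Levels are given as log2(signal + 16) after quantile normalization, for the brightest probe set of each gene, and were compared within a gene only. A gene was tested where its mean over 8 arrays reached 6.41, the median of the probe set means, and 44 of the 78 genes were, among 12093 genes in all. ITGA7, with a mean of 6.63, lay just inside this limit and COL20A1, with 6.36, just outside. The 2% trimmed mean signal was 500.1 on every array and the median signal ranged from 68.6 to 84.2. Of the 9 renal epithelial markers measured 7 passed by their means: PAX8, KRT8, KRT18, KRT19 and EPCAM on all 8 arrays, and PAX2 and CDH6 on 6. CDH1 reached the limit on 1 array and LRP2 on 0. Of the 3 clear cell carcinoma markers measured VIM and ANGPTL4 were above it on all 8 arrays and EGLN3 on 4, the arrays of CAKI2 and A498. Of the fibroblast markers 1 of 5 passed by its mean (THY1), of the endothelial markers 1 of 4 (PECAM1), and of the leukocyte markers 0 of 3.

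The first comparison asked which of these genes changed with A939572. Among the 44 tested genes, 13 fell and 2 rose, and 29 did not pass the test (limma with cell line as a block, Benjamini-Hochberg adjusted p at or below 0.05 over all 12093 genes). That is 29.5% lower and 4.55% higher, beside 15.9% lower and 14.7% higher over all tested genes, and 30.6% in either direction. The median log2 difference of the 44 genes was -0.25, beside -0.03 over all genes. Integrin subunits that fell were ITGA4, ITGB8, ITGA6, ITGB5 and ITGAE, laminin chains LAMB1 and LAMA5, and collagen chains COL4A1, COL1A1, COL8A1, COL4A2, COL4A5 and COL18A1. The chains that rose were LAMB3 and COL27A1. Each of the 13 that fell was lower in 4 of 4 lines, though the test itself favours genes with such agreement. Called or not, 18 of the 44 genes (40.9%) had the same sign in 4 lines, beside 48.1% of all tested genes. For COL4A1, LAMB1 and ITGA6 every A939572 array was below every DMSO array, and for the other called genes the levels of both treatments overlapped across lines. The share of all tested genes without such overlap was not counted, so whether this separation is unusual was not tested. Without ACHN 9 fell and 0 rose, beside 1395 and 1237 of all 12093 genes, and without CAKI2, A498 or CAKI1 1 rose. With median centring 2 rose and 12 fell, and over all genes 58.3% of calls were higher, against 48.0% with quantile normalization. The ratio of 3′ to 5′ control probe sets of ACTB, a measure of RNA integrity and labelling, was 3.02 to 4.22 on the A939572 arrays and 2.12 to 2.33 on the DMSO arrays, higher with A939572 in 4 of 4 lines. For GAPDH the same ratio was 1.01 to 1.11 with A939572 and 0.962 to 1.05 with DMSO. The part of RNA integrity in these differences was not tested. In RNA of whole cultures, fewer cells of a kind and less RNA per cell cannot be told apart.

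**Figure D1:**
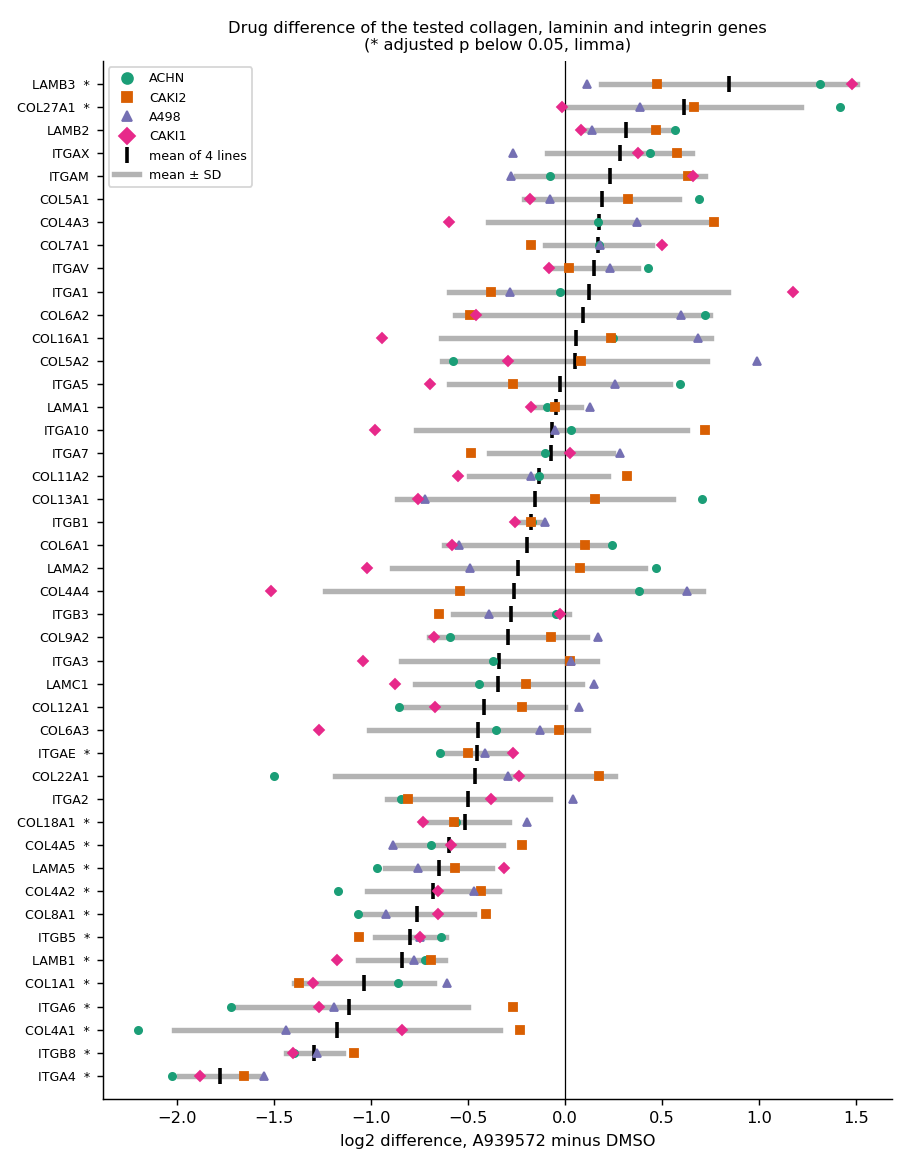
Log2 difference, A939572 minus DMSO, for the 44 tested genes, sorted by mean difference. Each gene has 1 point for each of the 4 lines, a tick for their mean and a grey bar for mean ± SD. Asterisks mark the 15 genes past the threshold, of which 13 lie below 0 and ITGA4 has the lowest mean, -1.78.

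Type IV collagen is the network collagen of basement membranes, whose 6 related chains are encoded by genes lying in head-to-head pairs that start from a shared stretch. COL4A1 and COL4A2, the chains of the common form, both fell, while COL4A3 and COL4A4, the chains of the glomerular form, did not pass the test. The stretches are shown because both genes of a pair start beside them. Between the starts of COL4A1 and COL4A2, 126 bases apart on chromosome 13, RefSeq (GRCh38.p14) gives the stretch at chr13:110307158-110307283, plus strand. The starts of COL4A4 and COL4A3 lie 418 bases apart on chromosome 2, and those of COL4A6 and COL4A5 lie 379 bases apart on chromosome X. For COL4A3 the 250 bases before its start are chr2:227164374-227164623, plus strand, and for COL4A4 chr2:227164206-227164455, minus strand, so that both windows share bases. Capitals mark the letters GGGCGG, the core of the GC box, and CCAAT, the core of the CCAAT box, on either strand. All sequences run 5′ to 3′ along the strand given.
COL4A1-COL4A2: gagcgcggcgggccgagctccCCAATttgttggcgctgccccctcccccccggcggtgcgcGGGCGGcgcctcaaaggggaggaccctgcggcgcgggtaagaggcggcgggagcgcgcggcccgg
COL4A3: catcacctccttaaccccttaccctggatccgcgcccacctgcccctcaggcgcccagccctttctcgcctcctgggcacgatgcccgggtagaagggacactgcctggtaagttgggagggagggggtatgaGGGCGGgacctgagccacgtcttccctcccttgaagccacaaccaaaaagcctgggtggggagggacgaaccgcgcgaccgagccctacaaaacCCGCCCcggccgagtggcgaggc
COL4A4: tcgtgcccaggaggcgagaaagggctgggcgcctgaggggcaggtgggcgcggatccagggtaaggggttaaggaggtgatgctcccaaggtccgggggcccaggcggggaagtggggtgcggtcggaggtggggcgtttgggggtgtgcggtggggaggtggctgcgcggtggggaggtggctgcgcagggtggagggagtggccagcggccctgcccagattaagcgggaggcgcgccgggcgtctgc
The COL4A1 and COL4A2 stretch held 1 GGGCGG and 1 CCAAT, the COL4A3 window held 2 GGGCGG and 0 CCAAT, and the COL4A4 window held neither. Over 35116 RefSeq windows, 42.6% held GGGCGG and 32.0% CCAAT in the 250 bases before the start, and 34.6% and 21.1% did in the last 126 bases. A match of letters does not show that a factor binds there.

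COL4A1 stood at 11.24 (ACHN), 12.72 (CAKI2), 11.99 (A498) and 12.12 (CAKI1) with A939572, against 13.43 (ACHN), 12.95 (CAKI2), 13.43 (A498) and 12.96 (CAKI1) with DMSO. It was lower in every line, with a mean log2 difference of -1.18 ± 0.84 (SD, n = 4 lines, as for all differences here) and adjusted p = 0.00833. The size differed widely, with -2.20 in ACHN and -0.23 in CAKI2. COL4A2 stood at 11.16 (ACHN), 10.77 (CAKI2), 12.56 (A498) and 11.51 (CAKI1) with A939572, against 12.33 (ACHN), 11.20 (CAKI2), 13.03 (A498) and 12.17 (CAKI1) with DMSO. Each line was lower with A939572, and the mean difference was -0.68 ± 0.34 (adjusted p = 0.00649). Averaging its probe sets lost the call (-0.52, adjusted p = 0.0545). A dimmer probe set of COL4A2 gave -0.35 ± 0.59 and was higher in A498 by 0.33, whereas both COL4A1 probe sets passed the test by themselves.

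COL4A5, the chain that joins COL4A3 and COL4A4 in the glomerular form, stood at 8.94 (ACHN), 7.03 (CAKI2), 9.47 (A498) and 9.47 (CAKI1) with A939572, against 9.63 (ACHN), 7.26 (CAKI2), 10.35 (A498) and 10.05 (CAKI1) with DMSO. The mean difference was -0.60 ± 0.28 (adjusted p = 0.0193), lower in each line. The call was lost without ACHN (adjusted p = 0.0681), A498 (0.0932) or CAKI1 (0.0595), and on averaging its probe sets (-0.26, adjusted p = 0.320). COL4A3 stood at 7.70 (ACHN), 10.62 (CAKI2), 5.63 (A498) and 5.95 (CAKI1) with A939572, against 7.53 (ACHN), 9.86 (CAKI2), 5.26 (A498) and 6.55 (CAKI1) with DMSO. COL4A4 stood at 7.86 (ACHN), 9.40 (CAKI2), 5.83 (A498) and 6.23 (CAKI1) with A939572, against 7.49 (ACHN), 9.94 (CAKI2), 5.20 (A498) and 7.74 (CAKI1) with DMSO. Both were highest in CAKI2 and below the limit of 6.41 in A498 on either treatment, and their differences with A939572, 0.18 ± 0.57 and -0.26 ± 0.97, had opposite signs among the lines (adjusted p = 0.642 and 0.594). COL4A6 had a mean of 6.28 and was not tested. In the limma F test over lines COL4A2, COL4A3, COL4A4 and COL4A5 passed the threshold (adjusted p = 0.000496, 3.72e-05, 0.000593 and 3.72e-05). COL4A1 did not (adjusted p = 0.601).

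**Figure D2:**
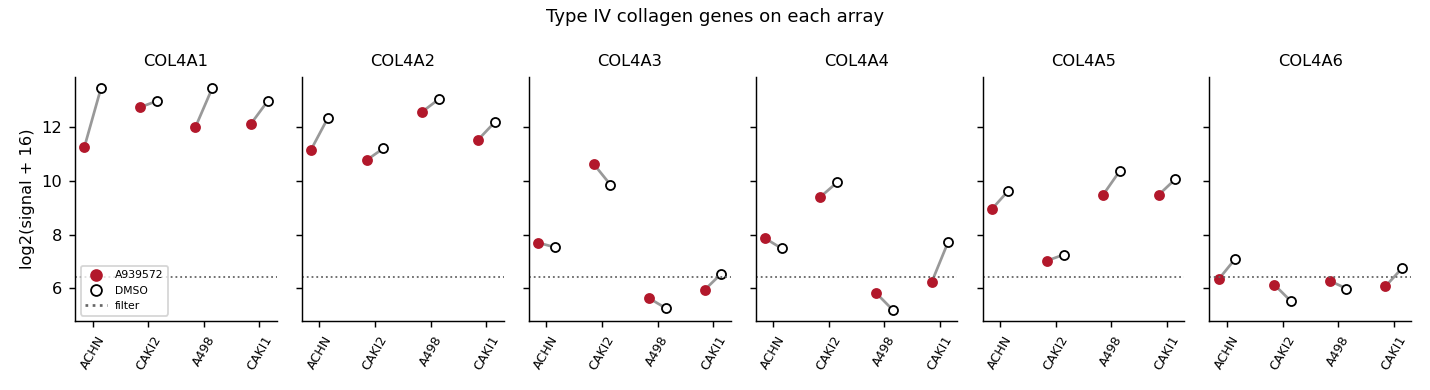
Level of the type IV collagen genes on each array, as log2(signal + 16), by line, with filled points for A939572, open points for DMSO and a dotted line at the filter of 6.41. COL4A1 is lower with A939572 in all 4 lines, while COL4A3 and COL4A4 are highest in CAKI2 on both treatments.

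Other network and filament collagens differed among themselves. COL8A1, a short-chain collagen of hexagonal lattices, stood at 10.92 (ACHN), 10.07 (CAKI2), 9.10 (A498) and 11.09 (CAKI1) with A939572, against 11.99 (ACHN), 10.48 (CAKI2), 10.02 (A498) and 11.75 (CAKI1) with DMSO. It was lower in each line, with a mean difference of -0.76 ± 0.29 (adjusted p = 0.0041), and averaging its probe sets lost the call (-0.57, adjusted p = 0.127). COL18A1, the basement membrane collagen from which endostatin is cut, stood at 8.95 (ACHN), 9.96 (CAKI2), 9.31 (A498) and 8.73 (CAKI1) with A939572, against 9.52 (ACHN), 10.53 (CAKI2), 9.51 (A498) and 9.46 (CAKI1) with DMSO. The difference was -0.52 ± 0.23 (adjusted p = 0.0241), with the smallest, -0.20, in A498. The call was lost with median centring (adjusted p = 0.0555) and without ACHN (0.0733), CAKI2 (0.0795) or CAKI1 (0.0877). COL6A1, COL6A2 and COL6A3, the chains of the beaded filament collagen, did not pass the test, with differences of -0.20 ± 0.43, 0.09 ± 0.66 and -0.45 ± 0.56. COL7A1, the anchoring fibril collagen of epithelia, differed by 0.17 ± 0.28 and COL13A1, a collagen that spans the cell membrane, by -0.16 ± 0.71. In this class of 12 tested genes 5 fell and 0 rose, with a median of -0.35.

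Among the 9 tested fibril-forming and fibril-associated collagens 1 fell and 1 rose, with a median of -0.14. COL1A1, the chain present as a pair of copies in type I collagen, stood at 8.64 (ACHN), 5.47 (CAKI2), 9.73 (A498) and 7.64 (CAKI1) with A939572, against 9.50 (ACHN), 6.85 (CAKI2), 10.34 (A498) and 8.93 (CAKI1) with DMSO. Its brightest probe set was lower in each line, with a mean difference of -1.04 ± 0.36 (adjusted p = 0.00318), though the CAKI2 array with A939572 was below the limit of 6.41. Averaged over its probe sets the difference was -0.42 and the call was lost (adjusted p = 0.161). A second COL1A1 probe set above the limit gave -0.11 ± 0.22, was higher in CAKI1 by 0.19 and did not pass the test by itself. COL27A1, a fibrillar collagen known from cartilage, stood at 11.70 (ACHN), 11.08 (CAKI2), 12.59 (A498) and 9.09 (CAKI1) with A939572, against 10.28 (ACHN), 10.42 (CAKI2), 12.21 (A498) and 9.11 (CAKI1) with DMSO. It was higher in ACHN, CAKI2 and A498, with -0.02 in CAKI1, and had a mean of 0.61 ± 0.60 (adjusted p = 0.0497). Its 3 probe sets above the limit gave 0.61, 0.72 and 0.35. Its call was lost without ACHN (0.35, adjusted p = 0.187), without CAKI2 (adjusted p = 0.117) and without A498 (adjusted p = 0.0846). It was also lost on averaging its probe sets (0.25, adjusted p = 0.325), with no filter (adjusted p = 0.073), with an offset of 1 (adjusted p = 0.0574) and without a variance trend (adjusted p = 0.102).

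The summed signal of the 5 fibroblast markers was 160 to 490 on the A939572 arrays and 174 to 3340 on the DMSO arrays. THY1 held most of the spread, at 8.53 in ACHN with A939572 and 11.67 with DMSO, and the part of these markers in the collagen differences was not tested. DCN, LUM, PDGFRA and PDGFRB were below the limit by their means. COL5A1, COL5A2, COL11A2, COL9A2, COL12A1, COL16A1 and COL22A1 did not pass the test for A939572, with mean differences from -0.46 (COL22A1) to 0.19 (COL5A1).

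Laminin chains moved in both directions. LAMB1, a beta chain of many basement membrane laminins, stood at 12.16 (ACHN), 12.34 (CAKI2), 12.39 (A498) and 12.25 (CAKI1) with A939572, against 12.88 (ACHN), 13.04 (CAKI2), 13.17 (A498) and 13.43 (CAKI1) with DMSO. Every A939572 array lay below every DMSO array, and the mean difference was -0.84 ± 0.23 (adjusted p = 0.00094). LAMA5, the alpha chain of mature tubular and glomerular basement membranes, stood at 7.41 (ACHN), 9.80 (CAKI2), 9.78 (A498) and 7.59 (CAKI1) with A939572, against 8.37 (ACHN), 10.37 (CAKI2), 10.54 (A498) and 7.91 (CAKI1) with DMSO. Its levels overlapped between treatments but were lower with A939572 in each line, with a mean difference of -0.65 ± 0.28 (adjusted p = 0.0133). The call was lost without ACHN (adjusted p = 0.0531) or A498 (0.0616). LAMB3, the beta chain of the laminin that anchors stratified epithelia, stood at 8.40 (ACHN), 8.88 (CAKI2), 9.81 (A498) and 9.39 (CAKI1) with A939572, against 7.09 (ACHN), 8.40 (CAKI2), 9.70 (A498) and 7.91 (CAKI1) with DMSO. It was the laminin that rose, by 0.84 ± 0.66 (adjusted p = 0.0242), with 1.48 in CAKI1 and 0.11 in A498. That call was lost without ACHN (0.69, adjusted p = 0.0907) or CAKI1 (0.63, adjusted p = 0.101). LAMC1, the gamma chain of most laminins, differed by -0.34 ± 0.43 (adjusted p = 0.121), and without A498 by -0.51 (adjusted p = 0.0438). LAMA1 differed by -0.05 ± 0.13, LAMA2, the muscle laminin chain, by -0.24 ± 0.65, and LAMB2, a beta chain of the glomerulus, by 0.31 ± 0.24, and none of the 3 passed the test. LAMA4, the alpha chain of vessel laminins, had a mean of 6.20 and was not tested. In a fit with no filter its brightest probe set was higher with A939572 in 4 of 4 lines, by 1.58 ± 0.82 (adjusted p = 0.0194). All 4 of its DMSO arrays were below the limit, from 5.04 to 5.77. The other 4 LAMA4 probe sets, all dimmer, gave 0.70 ± 0.64, 0.15 ± 0.44, 0.03 ± 0.43 and -0.26 ± 0.53.

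Of the integrins, ITGA4 and ITGB8 had the largest mean differences, and both fell. ITGA4 encodes the alpha subunit of receptors for fibronectin and VCAM1, known from leukocytes. ITGB8 encodes a beta subunit that pairs with ITGAV and binds latent TGF-beta. The 250 bases before each start are shown for these genes, since their differences varied least among the 5 genes that changed by over 1 on the log2 scale. They lie at chr2:181457136-181457385 for ITGA4 and chr7:20330650-20330899 for ITGB8, both plus strand (RefSeq, GRCh38.p14), with capitals as above.
ITGA4: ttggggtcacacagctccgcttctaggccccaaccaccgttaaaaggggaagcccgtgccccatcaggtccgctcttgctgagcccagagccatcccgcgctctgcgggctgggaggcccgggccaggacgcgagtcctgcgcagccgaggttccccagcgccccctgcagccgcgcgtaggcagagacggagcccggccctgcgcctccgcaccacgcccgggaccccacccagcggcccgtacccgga
ITGB8: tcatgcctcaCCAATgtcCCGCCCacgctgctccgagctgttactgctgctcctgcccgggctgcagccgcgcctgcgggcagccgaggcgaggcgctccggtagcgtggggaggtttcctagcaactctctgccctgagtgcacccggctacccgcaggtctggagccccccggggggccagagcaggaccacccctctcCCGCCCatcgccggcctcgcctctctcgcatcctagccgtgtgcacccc
The ITGA4 window held neither set of letters, and the ITGB8 window held 2 GGGCGG and 1 CCAAT.

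ITGA4 stood at 8.13 (ACHN), 4.90 (CAKI2), 8.83 (A498) and 7.54 (CAKI1) with A939572, against 10.15 (ACHN), 6.56 (CAKI2), 10.38 (A498) and 9.42 (CAKI1) with DMSO. The differences ran from -2.02 to -1.55, with a mean of -1.78 ± 0.21 (adjusted p = 0.000274), which is 0.292 times the DMSO level on the offset scale. CAKI2 was lowest with either treatment and below the limit with A939572. ITGB8 stood at 8.94 (ACHN), 12.92 (CAKI2), 10.25 (A498) and 10.87 (CAKI1) with A939572, against 10.34 (ACHN), 14.01 (CAKI2), 11.53 (A498) and 12.27 (CAKI1) with DMSO. The difference ranged only from -1.40 to -1.09, with a mean of -1.29 ± 0.15 (adjusted p = 0.000235), while the level itself spanned 3.82 between line means. A second ITGB8 probe set, with a mean of 6.43 near the limit, gave -0.23 ± 0.51.

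ITGA6, the alpha subunit of laminin receptors of epithelia, stood at 9.19 (ACHN), 10.24 (CAKI2), 9.24 (A498) and 9.53 (CAKI1) with A939572, against 10.91 (ACHN), 10.50 (CAKI2), 10.43 (A498) and 10.80 (CAKI1) with DMSO. The treatments did not overlap, and the mean difference was -1.11 ± 0.61 (adjusted p = 0.00445), with -1.72 in ACHN and -0.27 in CAKI2. ITGB5, the beta subunit of a vitronectin receptor, stood at 10.75 (ACHN), 11.65 (CAKI2), 11.71 (A498) and 11.36 (CAKI1) with A939572, against 11.38 (ACHN), 12.71 (CAKI2), 12.46 (A498) and 12.10 (CAKI1) with DMSO. It was lower in each line, with a mean difference of -0.80 ± 0.18 (adjusted p = 0.00131). ITGAE, known as the subunit by which intraepithelial lymphocytes bind E-cadherin, stood at 11.61 (ACHN), 11.23 (CAKI2), 12.07 (A498) and 10.79 (CAKI1) with A939572, against 12.25 (ACHN), 11.73 (CAKI2), 12.48 (A498) and 11.06 (CAKI1) with DMSO. The smaller difference of -0.46 ± 0.16 had the same sign in 4 lines (adjusted p = 0.0152), and the call was lost without ACHN (adjusted p = 0.0724).

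ITGB1, the beta subunit shared by most matrix receptors, stood at 14.68 (ACHN), 15.07 (CAKI2), 15.08 (A498) and 14.93 (CAKI1) with A939572, against 14.85 (ACHN), 15.25 (CAKI2), 15.18 (A498) and 15.19 (CAKI1) with DMSO. Its brightest probe set was lower in 4 of 4 lines but by little, -0.18 ± 0.06, and did not pass the test (adjusted p = 0.0911). The next 2 ITGB1 probe sets gave -0.60 ± 0.17 and -0.63 ± 0.22 and passed when each probe set was fitted by itself (adjusted p = 0.00173 and 0.00221 over 27307 probe sets). A call for ITGB1 thus depended on the probe set. In that fit, chosen after seeing the data, 23 of the 80 probe sets of these genes were lower (28.8%) and 2 higher (2.5%), beside 13.0% lower and 13.0% higher of all probe sets. Of the 11 called genes with several probe sets above the limit, all 11 had a single sign in their probe sets, and 5 had every probe set called, namely COL4A1, ITGA4, ITGA6, ITGB5 and LAMB1. The call came from the brightest of these probe sets, which favours such agreement, and the share over all called genes was not counted.

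The collagen receptor subunits ITGA1, ITGA2 and ITGA10 differed by 0.12 ± 0.72, -0.50 ± 0.42 and -0.07 ± 0.70. Of these ITGA2 came nearest to the threshold (adjusted p = 0.0612), and passed it without A498 (-0.68, adjusted p = 0.033). The laminin receptor subunits ITGA3 and ITGA7 differed by -0.34 ± 0.50 and -0.07 ± 0.32, and the fibronectin receptor subunit ITGA5 by -0.03 ± 0.57. ITGAV, the partner of ITGB3, ITGB5 and ITGB8, differed by 0.15 ± 0.23 and ITGB3 by -0.28 ± 0.30. ITGAM and ITGAX, subunits of leukocyte receptors, differed by 0.23 ± 0.48 and 0.28 ± 0.38. None of these 10 passed the test. In all, 0 integrin subunits rose, 3 of 12 alpha and 2 of 4 beta subunits fell, and 11 of 16 did not pass.

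Line by line, the 44 genes had a median log2 difference with A939572 of -0.59 in CAKI1, of -0.19 in CAKI2 and of -0.15 in both ACHN and A498. The medians over all genes lay between -0.04 and -0.01. In CAKI1 37 of the 44 were below 0, against 28 in ACHN, 27 in CAKI2 and 26 in A498. Each line has 1 array per treatment, so these values carry no test, and whether CAKI1 differs from the other lines was not tested.

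The second comparison asked how the genes differed between the lines. Over both treatments, 34 of the 44 genes (77.3%) differed between lines in the F test, beside 61.0% of all tested genes. The range of the 4 line means had a median of 1.52, beside 0.95 over all genes. It exceeded 2 in 18 of the 44 genes (40.9%) and in 14.6% of all genes. Among the 18, COL5A1, COL6A3 and ITGA7 passed the filter only through the line in which each was highest. Such genes were not counted over all tested genes. The range exceeded the size of the mean A939572 difference in 41 of 44 genes (93.2%, beside 87.6% of all genes), the exceptions being COL4A1, ITGA6 and LAMB1. The spread used in this test is that of the A939572 difference between lines, since no line has repeated cultures of the same treatment.

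**Figure D3:**
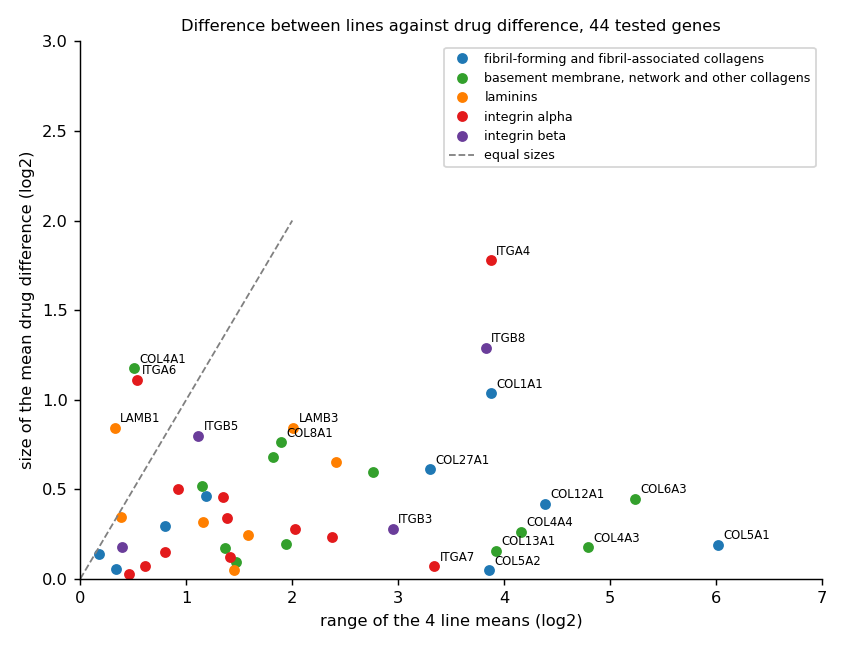
Range of the 4 line means (horizontal axis, log2) against the size of the mean difference with A939572 (vertical axis, log2) for the 44 tested genes, coloured by class. COL4A1, ITGA6 and LAMB1 lie above the dashed line of equal sizes, and COL5A1 has the widest range, 6.01.

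COL5A1, a chain of the collagen that starts fibrils, had the widest range. It stood at 5.46 (ACHN), 6.31 (CAKI2), 11.08 (A498) and 6.70 (CAKI1) with A939572, against 4.76 (ACHN), 5.98 (CAKI2), 11.16 (A498) and 6.88 (CAKI1) with DMSO. A498 was above the mean of the other 3 lines by 5.11, the measure used for each single line here, and the other lines lay between 4.76 and 6.88 with either treatment. COL5A2, its partner chain, stood at 7.65 (ACHN), 7.73 (CAKI2), 7.19 (A498) and 10.41 (CAKI1) with A939572, against 8.23 (ACHN), 7.65 (CAKI2), 6.21 (A498) and 10.70 (CAKI1) with DMSO. Here CAKI1 was highest, 3.12 above the mean of the other 3 lines, and A498 was lowest, so the partner chains had their highest levels in different lines. COL12A1, a fibril-associated collagen, stood at 9.82 (ACHN), 6.36 (CAKI2), 10.90 (A498) and 8.43 (CAKI1) with A939572, against 10.67 (ACHN), 6.58 (CAKI2), 10.83 (A498) and 9.10 (CAKI1) with DMSO. Against the mean of the other 3 lines CAKI2 was low (-3.48) and A498 high (2.37). By its brightest probe set COL1A1 was also lowest in CAKI2 (-2.97) and highest in A498 (2.20). Its second probe set above the limit was also lowest in CAKI2 but had a range over lines of only 0.51, with ACHN highest.

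COL6A3, the longest chain of the beaded filament collagen, stood at 6.88 (ACHN), 4.54 (CAKI2), 5.39 (A498) and 9.16 (CAKI1) with A939572, against 7.24 (ACHN), 4.57 (CAKI2), 5.52 (A498) and 10.42 (CAKI1) with DMSO. It was above the other 3 lines in CAKI1 by 4.10 and below the limit in CAKI2 and A498 with either treatment. COL6A3 thus passed the filter only through CAKI1. COL13A1 stood at 8.11 (ACHN), 5.72 (CAKI2), 9.21 (A498) and 6.11 (CAKI1) with A939572, against 7.41 (ACHN), 5.57 (CAKI2), 9.93 (A498) and 6.87 (CAKI1) with DMSO. A498 was highest, 2.94 above the mean of the other 3 lines. COL4A3 and COL4A4 were above the other lines in CAKI2, by 3.80 and 2.94, and below them in A498 (-2.59 for both).

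Among laminin chains, LAMA5 was above the other lines in CAKI2 (1.49) and A498 (1.58), and below in ACHN (-1.44) and CAKI1 (-1.63). LAMB3 was highest in A498 (1.41) and lowest in ACHN (-1.27). LAMA1, the alpha chain of embryonic basement membranes, stood at 9.36 (ACHN), 10.81 (CAKI2), 10.92 (A498) and 10.59 (CAKI1) with A939572, against 9.45 (ACHN), 10.86 (CAKI2), 10.79 (A498) and 10.77 (CAKI1) with DMSO. ACHN was lowest with either treatment (-1.39 against the other 3 lines). LAMA2 stood at 8.36 (ACHN), 7.93 (CAKI2), 6.30 (A498) and 7.28 (CAKI1) with A939572, against 7.89 (ACHN), 7.85 (CAKI2), 6.79 (A498) and 8.30 (CAKI1) with DMSO. It was lowest in A498 (-1.39). LAMB1 and LAMC1 did not differ between lines past the threshold (adjusted p = 0.31 and 0.359).

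Among integrins, ITGB8 was above the other lines in CAKI2 (2.76) and below in ACHN (-2.34). ITGA4 was below them in CAKI2 (-3.34) and above in A498 (1.82). ITGB3, the beta subunit of a vitronectin receptor, stood at 8.75 (ACHN), 11.12 (CAKI2), 11.53 (A498) and 9.19 (CAKI1) with A939572, against 8.80 (ACHN), 11.77 (CAKI2), 11.92 (A498) and 9.22 (CAKI1) with DMSO. CAKI2 and A498 were high and ACHN and CAKI1 low, a grouping of lines read from these same values. ITGA7 stood at 8.46 (ACHN), 6.80 (CAKI2), 5.31 (A498) and 5.82 (CAKI1) with A939572, against 8.56 (ACHN), 7.28 (CAKI2), 5.03 (A498) and 5.80 (CAKI1) with DMSO. ACHN was highest, 2.51 above the mean of the other 3 lines, and A498 and CAKI1 were below the limit. ITGA7 thus passed the filter only through ACHN. ITGAM stood at 7.83 (ACHN), 9.04 (CAKI2), 6.57 (A498) and 6.67 (CAKI1) with A939572, against 7.91 (ACHN), 8.40 (CAKI2), 6.85 (A498) and 6.01 (CAKI1) with DMSO. ITGAX stood at 6.11 (ACHN), 8.21 (CAKI2), 7.22 (A498) and 7.00 (CAKI1) with A939572, against 5.67 (ACHN), 7.63 (CAKI2), 7.49 (A498) and 6.63 (CAKI1) with DMSO. By their brightest probe sets both were above the other lines in CAKI2, by 1.74 and 1.23. A second ITGAM probe set above the limit, with a mean of 6.70, had its lowest line mean in CAKI2 (6.35). Its highest was in A498 (6.98), a range of 0.63, so the order of lines for ITGAM depended on the probe set. ITGB2, the beta subunit that ITGAM and ITGAX pair with, had a mean of 6.21, was not tested and had 4 arrays at or above the limit. The leukocyte markers PTPRC and CD14 were below the limit on all 8 arrays, and CD3E was below it by its mean. ITGB5 had a range of 1.11, with ACHN below the other lines (-0.93), and ITGB1 had a range of 0.40, with ACHN lowest (-0.35).

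**Figure D4:**
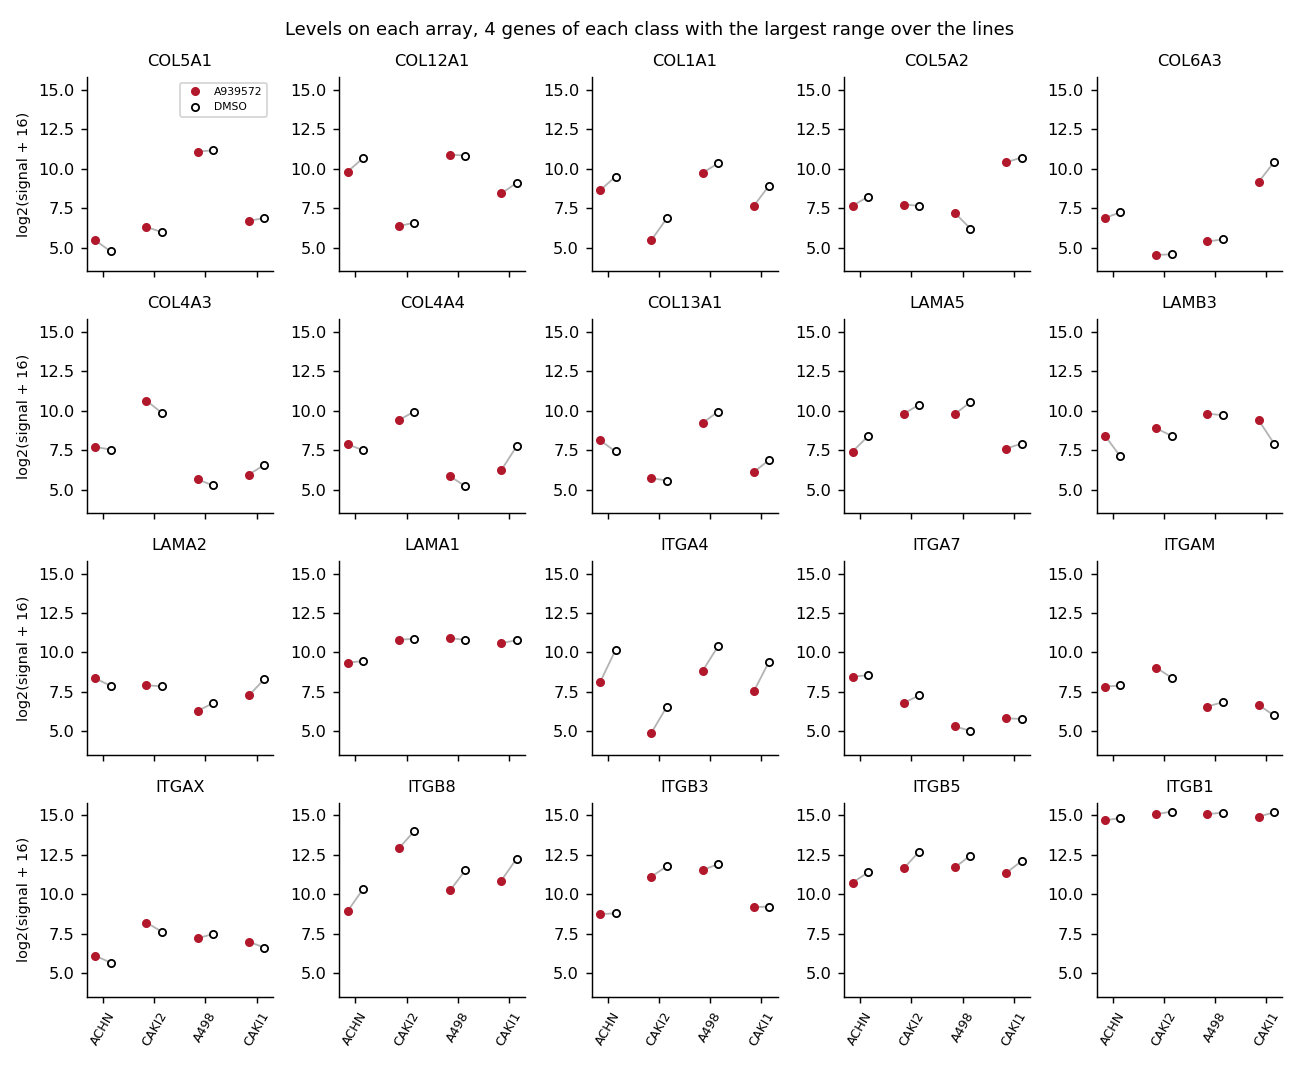
Level on each array, as log2(signal + 16), of the 4 tested genes of each class with the largest range over lines. Points are filled for A939572 and open for DMSO. For integrin beta these are all 4 tested genes, among them ITGB1, with a range of only 0.40. Lines are set side by side within a gene, and levels of different genes are not comparable. COL5A1 is high in A498 and ITGB8 in CAKI2 with either treatment.

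Counted over the 44 genes, A498 was above the mean of the other 3 lines in 19 (43.2%) and below in 9 (20.5%), beside 16.9% and 17.9% of all genes. CAKI2 was above in 11 (25.0%) and below in 12 (27.3%), beside 19.2% and 18.5%. ACHN was above in 5 (11.4%) and below in 12 (27.3%), beside 14.5% and 13.7%. CAKI1 was above in 5 (11.4%) and below in 9 (20.5%), beside 17.5% and 16.4%. The 19 genes above in A498 included COL5A1, COL13A1, COL12A1, COL1A1, COL27A1, ITGB3, ITGA4, LAMA5 and LAMB3, and by class 8 were collagens, 4 laminins and 7 integrins. Of these COL5A1 was tested only because of its level in A498. With probe sets that match several transcripts left out, 12 of 35 genes were above in A498. Of the 24 genes with several probe sets at or above the limit, 12 had the same highest line in all of them. The line with the highest level was the same on the A939572 and the DMSO arrays for 26 of 44 genes. A498 was highest for 22 genes on the A939572 arrays and 19 on the DMSO arrays. These counts of the highest line were not made over all tested genes, so they cannot be set against the array as a whole.

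**Figure D5:**
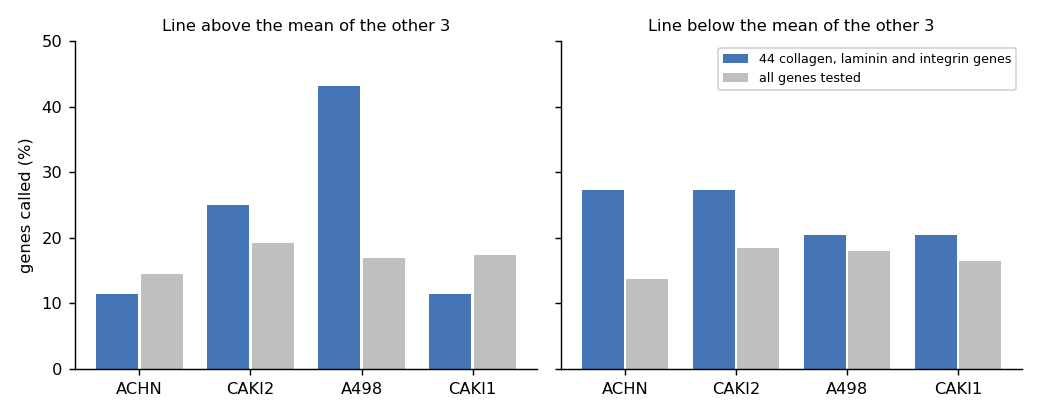
Percentage of genes above (left panel) and below (right panel) the mean of the other 3 lines, past an adjusted p of 0.05, for each line, among the 44 genes and among all 12093 tested genes. A498 has the largest percentage above, 43.2% of the 44 genes beside 16.9% of all genes.

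The other 34 genes had means from 4.41 to 6.36 and were not tested. In 16 of them every array was below the limit, namely COL9A3, COL15A1, COL9A1, COL26A1, COL19A1, COL6A5, COL11A1, COL6A6, COL23A1, COL3A1, LAMB4, COL24A1, COL2A1, ITGA8, ITGA9 and COL8A2. In the other 18 at least 1 array reached it, namely COL1A2, COL21A1, COL25A1, COL5A3, COL28A1, ITGAD, ITGB4, ITGAL, COL10A1, ITGA11, LAMC3, COL4A6, ITGA2B, COL20A1, COL14A1, ITGB7, LAMA4 and ITGB2. COL1A2, the partner chain of COL1A1 in type I collagen, and COL3A1, the main collagen of soft tissue, were among the untested. ITGB2 reached 9.33 on its highest array. ITGB4, the partner of ITGA6 in hemidesmosomes, differed by -1.05 ± 0.85 in the fit with no filter (adjusted p = 0.0985).

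Genes around these families were counted in 5 lists of textbook roles, with 125 of 158 genes tested, of which 16 rose and 30 fell (19 without CAKI1), and a median of -0.18. That is 12.8% higher and 24.0% lower, beside 14.7% and 15.9% of all tested genes. Among 23 genes of collagen modification and cross-linking 5 rose and 8 fell. MIA3, which loads collagen into carriers leaving the endoplasmic reticulum, rose by 1.38 ± 0.08. LOX, a cross-linking oxidase, rose by 1.22 ± 0.51, and PCOLCE, an enhancer of procollagen processing, fell, with a difference of -1.10 ± 0.85. Of 27 other basement membrane and matrix proteins 2 rose and 7 fell, with a median of -0.39. They included TNC, at 1.27 ± 1.14, THBS2, at -1.27 ± 0.60, and VCAN, at -1.26 ± 0.45, which encode secreted matrix glycoproteins and a proteoglycan.

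Among 20 matrix proteases and inhibitors 2 rose and 3 fell. The protease ADAMTS1 rose by 1.97 ± 0.66 and the sheddase ADAM17 by 0.92 ± 0.49, and the inhibitor TIMP2 fell, with a difference of -1.21 ± 0.31. Of 36 integrin adhesion adaptors and kinases 5 rose and 8 fell. KANK2, which binds talin, differed by -1.84 ± 0.28, and the tensins TNS3 and TNS1 by -1.12 ± 0.32 and -1.05 ± 0.48. Of 19 other matrix receptors 2 rose and 4 fell. They included the syndecans SDC1 and SDC2, at -1.21 ± 0.12 and -0.88 ± 0.73, and the collagen receptor kinase DDR2, at 1.01 ± 0.29. Each of these 15 named genes had the same sign in 4 of 4 lines, which the test that called them favours.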

How the data were processed

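The deposited value table of the series holds 1 signal intensity per probe set and array (54675 probe sets, 8 arrays). The authors deposited these intensities on a linear scale, each array scaled to the same 2% trimmed mean, as seen in the values, and the program that made them is not given in the sources used here. RNA was labelled with biotin per the labels' protocols. Probe sets were named from the platform annotation, updated through RefSeq: 41091 had a single symbol, 1801 several and 11721 none, after 62 control probe sets were left out.

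Intensities were taken as log2(signal + 16) and quantile normalized, the brightest probe set was kept for each gene, and genes with a mean at or above 6.41 were tested (12093 of 19775). The test was limma 3.58.1 (R 4.3.3), with cell line as a block, a variance trend, 2 sides and Benjamini-Hochberg adjustment at 0.05. The F test of the lines and each line against the mean of the other 3 came from the same model. The block follows from the cell line in the labels: deviations from the treatment mean of the arrays of a line correlated by 0.818 to 0.864. Those of different lines correlated by at most -0.03, but centring on the treatment mean itself lowers these values, so they do not bear on the block. An exact test on 4 pairs cannot go below a two-sided p of 0.125, so single genes were tested only in the fit over all genes.

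The genes and lists were chosen with earlier results of these data known. Genes named with every array were, in each of 5 classes, up to 6 past the threshold with the largest difference and up to 4 with the widest range over lines. From each list up to 3 past the threshold were named. Other genes are given by counts, ranges and differences, and ITGB2, ITGB4, LAMA4 and the other genes described outside that rule were picked after seeing their values. Simulated data with known changes served to check the fit over the same 12093 genes. False calls made up 7.55% of the calls for A939572 and 14.1% for the F test of the lines, both above the nominal rate. For A498 above the mean of the other 3 lines they made up 3.11%. The test for A939572 recovered 40.3% of changes of 0.585 on the log2 scale and 82.1% of changes of 1. Alternatives changed the scaling, offset, filter, probe set rule, variance trend, block and lines used, and each probe set was also fitted by itself, an alternative added after seeing the data. The number of arrays limits the precision.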

Additional observations from a re-analysis of the deposited data

Results flagged for a closer look

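In 6 of 132 sets of 4 values, 1 line stood far from the other lines, its gap to the nearest, as a share of the whole range, exceeding Dixon's critical value. Chance gives about 1 in 20 such sets. COL5A2 with A939572 was 10.41 in CAKI1, with 7.73 in the next line (gap 0.832 of the range). ITGA2 with A939572 was 9.83 in A498, with 8.70 in the next line (0.878). On the DMSO arrays ACHN was low for COL6A1, at 8.87 with 10.81 next (0.934), for LAMA1, at 9.45 with 10.77 next (0.938), and for ITGB1, at 14.85 with 15.18 next (0.835). COL18A1 on the DMSO arrays was 10.53 in CAKI2, with 9.52 next (0.949).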

How the results depend on the processing

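Without the replicate block that pairs the arrays of a line, 0 of the 44 genes rose and 0 fell (limma, adjusted p at 0.05), 4 passed an unadjusted p of 0.05, and over all genes 38 rose and 29 fell. In the 5 lists 0 rose and 1 fell without it. Of the 2 genes that rose, 1 remained past the threshold with an offset of 1, 1 with the mean of all probe sets and 0 without a variance trend. Leaving out each line in turn gave 0 to 1 rising and 9 to 13 falling genes, and 11 to 17 rising and 19 to 29 falling genes in the lists, with 19 without CAKI1. Over all genes it gave 1237 to 1500 rising and 1395 to 1567 falling. The mean of all probe sets gave 9 rising genes in the lists. In every setting run other than the one without the block the calls kept were those of COL4A1, ITGA4, ITGA6, ITGB5, ITGB8 and LAMB1, 6 of 15. Calls lost in at least 1 of these settings were COL1A1, COL4A2, COL8A1, COL4A5, COL18A1, LAMA5, LAMB3, ITGAE and COL27A1, and ITGA2 and LAMC1 were gained in at least 1. Median centring moved the median of all genes to 0.03, 58.3% of calls then being higher against 48.0%, and left 2 rising and 12 falling genes.

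For the lines, the mean of all probe sets, with 37 of these genes tested, left 0 above in ACHN, 6 in CAKI2 and 3 in CAKI1. With probe sets matching several transcripts left out, 35 genes were tested, and 7 were below in ACHN, 5 above and 7 below in CAKI2, 12 above in A498 and 4 below in CAKI1. The stricter filter, with 33 genes tested, left 5 below in A498, 3 above in CAKI1 and 5 below in CAKI1. For the lines, the shares of all tested genes in these settings were not counted. None of the 15 called genes changed sign in any setting run, which the call itself favours, since it picks differences far from 0. Of the 29 genes that were not called, 15 had both signs over the settings, among them COL5A1, COL4A4, COL6A2, LAMA2, ITGA1 and ITGAM. Signs over the settings were not counted for all tested genes. The cause of the changes between settings was not tested. Differences of genes near the filter are small against background signal and are understated by the offset.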
